A study of Cricetulus griseus and Cricetulus griseus
Mus musculus and Mus musculus with 202 samples.

Results

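Cytochrome P450 enzymes of families 1 to 4 oxidise drugs, toxins, steroids and fatty acids. They were taken here as every gene whose array probes carried a single symbol beginning with Cyp1, Cyp2, Cyp3 or Cyp4, followed by subfamily letters and a number. The rule found 53 genes on 56 probes, of 16504 genes on 17786 probes with 1 symbol. There were 3 genes of family 1, 32 of family 2, 5 of family 3 and 13 of family 4. Cyp4f41-ps is a pseudogene, Cyp4x1os is an RNA from the strand opposite Cyp4x1, and Cyp2ab1 has a subfamily name of more than 1 letter. They were kept because their symbols meet the rule, and the other 50 genes gave the same counts of liver calls.

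These enzymes sit in the membrane of the endoplasmic reticulum, carry a haem group, and take electrons from P450 reductase and cytochrome b5. Hepatocytes hold the highest levels of many of them, and nuclear receptors and the aryl hydrocarbon receptor set their transcription in response to hormones, bile acids and foreign chemicals. In mice the subfamilies 2a, 2b, 2c, 2d, 2j, 3a, 4a and 4f have grown into clusters of closely similar genes, several of which are known to differ between male and female liver.

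The samples were 99 radiation hybrid lines of the T31 panel, made by fusing irradiated mouse fibroblasts with the hamster cell line A23, so that each line is 1 clone that keeps its own random part of the mouse genome in an otherwise hamster cell. RNA of each line was hybridised together with A23 RNA on 2 two-colour arrays, the second with the dyes exchanged. A further 4 arrays set mouse brain RNA against hamster brain RNA (2 arrays) and mouse liver RNA against hamster liver RNA (2 arrays), again with the dyes exchanged on the second. The labels call the arrays of a pair biological replicas and give no strain, sex, age or number of the animals, and the p-values reflect only how these samples vary, which may be technical. The cells were grown in DMEM with serum, and no drug treatment is named.

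All values below are log2 ratios, of hybrid over A23 or of mouse over hamster, and they are differences, not levels. The deposited values had a floor, which in replicate 1 makes a log2 ratio of 6.64 a lower bound, given here as "at least". A gene was called when its Benjamini-Hochberg adjusted p over all 16504 genes was under 0.05 and its mean differed from 0 by at least 0.2. In the tissues the replicate number is the dye orientation, and calls are given from limma without a term for it and, where they differ, with a replicate block. The 4 tissue arrays had been centred together for each probe before deposition, which cancels in the means. The centring can however force the arrays of 1 tissue to agree, and both brain arrays held the middle values in 33 of the 56 P450 probes, against 28.8% of all probes. Poor binding of hamster RNA to a mouse probe raises a ratio just as a higher mouse level does, and the 2 cannot be told apart.

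Mouse liver exceeded hamster liver for a large group of P450 genes. Of the 53 genes, 14 were higher in mouse liver than in hamster liver (26.4%) and 4 were lower (7.55%), where 2.35% and 2.26% of all genes were called. With the replicate block the counts were 25 and 5, where 16.3% and 9.22% of all genes were called. The median of the 53 genes was 0.98 in liver, beside 0.02 over all genes, and 21 of them (39.6%) were at least 4-fold higher, beside 8.12% of all genes. All 18 genes called without the block had both brain arrays in the middle of the centring at every probe. The agreement of their brain arrays, which enters the spread shared by both tissues, was fixed by it. Both liver arrays were above 0 for 33 genes and below 0 for 17, and they were on opposite sides of 0 for 3. Through the centring, the liver arrays of nearly every probe agree in sign when its brain arrays do. The agreement within pairs is thus no independent support from replicates, and only its direction is read.

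Hepatocyte markers gave a mixed picture on the same arrays. Of 17 measured markers, 10 had a liver mean above 0 and their median was 0.30. The apolipoprotein Apoa1 (4.33), the thyroxine carrier Ttr (3.22) and the tyrosine-degrading enzymes Tat (3.79) and Hpd (4.61) were called higher in mouse liver, and G6pc, which releases glucose, was called lower (-2.29). The part of cell composition in the P450 ratios was not tested, and fewer cells of a type and less RNA per cell cannot be told apart in these samples. Alb, with values of -1.36 and -0.79, was called lower with the replicate block only (limma adjusted p = 0.0752 without it and 0.0472 with it). The block gave 5 hepatocyte markers higher and 2 lower. Of the 7 liver endothelial markers 6 had a mean above 0, with a median of 1.02, and 0 were called by limma without the block and 2 higher with it. The medians were 0.59 over 7 stellate cell markers, -0.15 over 5 Kupffer cell markers and -0.36 over 5 cholangiocyte markers. Without the block 1 of those 17 was called, a stellate cell marker, higher.

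The largest liver ratios belonged to Cyp2f2, which is known in mice for activating naphthalene in lung and liver. Its values were at least 6.64 on replicate 1 and 7.44 on replicate 2, and its mean of at least 7.04 ± 0.24 is at least 132-fold (limma adjusted p = 0.0233). For tissue values, ± is the SE of the limma fit to all 4 tissue arrays. It is not the spread of the 2 liver arrays alone, and it takes a bounded value as measured. Cyp3a16, a family 3 gene best known from fetal and neonatal mouse liver, had at least 6.64 and 6.64, with a mean of at least 6.64 ± 0.27 (limma adjusted p = 0.0244). Cyp2d34 had at least 6.64 and 6.45. Cyp2c40, which oxidises arachidonic acid, had at least 6.64 and 5.55, and its mean of at least 6.10 ± 0.71 passed narrowly (limma adjusted p = 0.0490). Its spread is shared with its brain arrays, which lay further apart, at -0.92 and -3.21. Cyp3a41a had 6.19 and 5.89, both measured above the floor. These 5 genes are the family's most extreme mouse-over-hamster ratios, and 4 of them rest on 1 bounded value.

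A second tier lay between 3 and 5 on the log2 scale. The steroid hydroxylases Cyp2a4 (5.21 and 4.04) and Cyp2a12 (5.04 and 3.32), both measured members of subfamily 2a, were called higher. Cyp2c70, which makes the muricholic acids that set mouse bile apart, had 5.47 and 3.73, with a mean of 4.60 ± 0.53. Cyp4f13 had 4.42 and 3.54. Cyp2j5, an arachidonic acid epoxygenase of mouse liver and kidney, had 4.51 and 3.27. Cyp2d10 had 3.74 and 2.83. Cyp1a1, the classical target of the aryl hydrocarbon receptor, had 3.34 and 2.84, and its mean of 3.09 ± 0.26 is 8.50-fold (limma adjusted p = 0.0389).

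Cyp2e1, which oxidises ethanol and acetaminophen, had the closest pair of arrays among the genes called higher that were free of the floor. Its values were 2.54 and 2.67, and its mean of 2.61 ± 0.11 is 6.09-fold (limma adjusted p = 0.0246). Cyp2d12 had the smallest ratio called higher, at 1.66 and 1.92. The 14 genes came from subfamilies 1a, 2a, 2c, 2d, 2e, 2f, 2j, 3a and 4f, and both arrays were above 0 for each. That the arrays share a sign was fixed by the centring, while the direction was not.

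The 4 genes lower in mouse liver than in hamster liver were led by a pair from subfamily 2b. Cyp2b13 had -5.21 and -3.96, with a mean of -4.59 ± 0.51, or 24.0-fold below hamster liver (limma adjusted p = 0.0468). Its 2 probes gave -3.80 and -5.37, and neither was called alone (limma adjusted p = 0.0583 and 0.0644). Cyp2b10, the gene induced by phenobarbital through the receptor Nr1i3, had -4.67 and -3.49, with a mean of -4.08 ± 0.34, or 16.9-fold below hamster liver (limma adjusted p = 0.0379). Cyp2j6 had -1.66 and -1.98. Cyp4a10, a fatty acid hydroxylase and a target of Ppara, had -1.30 and -1.29.

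A further 12 genes were called in liver with the replicate block only. Among the 11 higher ones were Cyp2b9 (4.98 and 3.04), Cyp2c37 (2.90 and 4.50), Cyp3a13 (4.14 and 1.91), Cyp2d26 (4.00 and 1.93), Cyp4a14 (3.61 and 2.27) and Cyp4a12a (3.08 and 1.82). Cyp2c23, Cyp4f14, Cyp4b1 and Cyp1b1 had smaller means, of 1.95, 1.17, 0.98 and 1.29. Cyp4f15 had the widest pair, at least 6.64 and 2.14. The lower one was Cyp3a25, at -1.93 and -1.35 (limma adjusted p = 0.0501 without the block and 0.0191 with it). For Cyp2d26 the 2 probes averaged 2.56 and 3.37, and the first was called alone without the block (limma adjusted p = 0.0476).

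Members of the same subfamily moved in opposite directions in liver. In subfamily 2b, Cyp2b9 and Cyp2b23 averaged 4.01 and 3.25, while Cyp2b10 and Cyp2b13 averaged -4.08 and -4.59 and Cyp2b19, a gene of skin, averaged -0.33. Cyp2b23 rested on 1 array, with 0.83 and 5.66, and was not called in either fit. In subfamily 3a, Cyp3a16 and Cyp3a41a stood above 6, Cyp3a13 averaged 3.02, Cyp3a11 averaged -0.24 and Cyp3a25 averaged -1.64. In subfamily 4a, Cyp4a14 and Cyp4a12a averaged 2.94 and 2.45, and Cyp4a10 averaged -1.30. Subfamily 2d was one-sided, with all 5 genes above 0 and means between 0.46 for Cyp2d9 and at least 6.55 for Cyp2d34. Probe sequences were not used here, so how far a probe also reads a closely similar mouse gene is uncertain for the subfamilies 2a, 2b, 2c, 2d, 3a and 4a.

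Some of the best known P450 genes of mouse liver had small ratios. Cyp3a11, the main adult 3a gene and the usual readout of the receptor Nr1i2, had -0.07 and -0.42. Cyp1a2, which clears caffeine, had 0.84 and -0.24. Cyp2c29, an abundant hepatic epoxygenase, had -0.55 and -0.35. Beside these, the vitamin D enzyme Cyp2r1 had a larger ratio, at 1.47 and 0.61, and Cyp2s1 had -0.30 and -0.45. Neither fit called any of these 5, and 16 of the 53 genes lay within 0.5 of 0 in liver. A ratio near 0 says nothing about the level, because both livers may be high or both low.

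Several members are known to differ by sex in mouse liver, and the sex of the animals is not given. Cyp2a4, Cyp2b9, Cyp2b13 and Cyp3a41a are known as higher in females, and they averaged 4.63, 4.01, -4.59 and 6.04 in mouse over hamster liver. Cyp2d9 and Cyp4a12a are known as higher in males, and they averaged 0.46 and 2.45. This grouping was chosen after the values were seen, and the genes of the first group lay on both sides of 0.

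**Figure D1:**
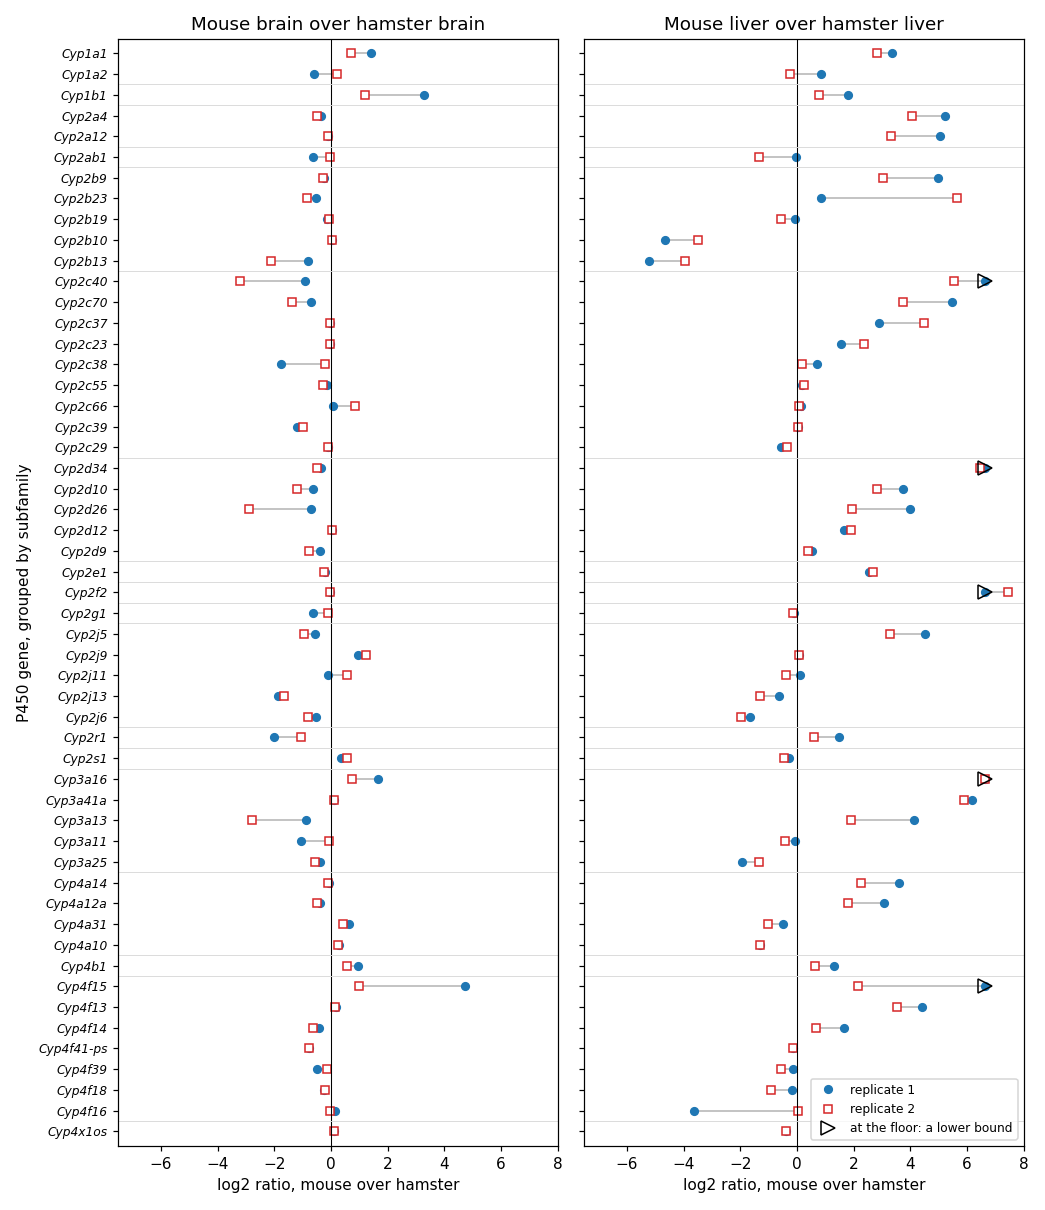
Log2 ratios of mouse over hamster for the 53 P450 genes in brain (left) and liver (right), with 1 row per gene grouped by subfamily. Points are single arrays, and triangles mark lower bounds at the floor. In liver 33 genes have both arrays above 0, against 15 in brain, and Cyp2b10 and Cyp2b13 lie far to the left in liver.

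In brain the P450 genes called between the species were Cyp2j9, higher in mouse, and Cyp2c39, Cyp2j13 and Cyp4f41-ps, lower. Of the 53 genes, 1 was thus higher in mouse brain than in hamster brain (1.89%) and 3 were lower (5.66%), where 10.1% and 5.91% of all genes were called. The replicate block raised the counts to 5 (9.43%) and 7 (13.2%), where 21.1% and 10.5% of all genes were called. Without the block the share of lower calls was close to that of all genes, and nothing is read from it about the P450 genes. The median of the 53 genes was -0.22 in brain, beside 0.06 over all genes, and both brain arrays were below 0 for 35 of them. The centring ties agreement of sign in brain to that in liver. Of the 8 astrocyte markers on the same arrays, 6 were called higher in mouse brain without the block, as were 2 of 12 neuron markers and 1 of 5 brain endothelial markers. None of these 25 markers was called lower without it. The part of cell composition in the brain ratios was not tested.

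The gene called higher in brain was Cyp2j9, an arachidonic acid epoxygenase known from mouse brain. Its values were 0.94 and 1.24 in brain, against 0.08 and 0.07 in liver, and its brain mean was 1.09 ± 0.13 (limma adjusted p = 0.0325). Cyp2c39 (-1.20 and -0.999) and the pseudogene Cyp4f41-ps (-0.79 and -0.78) were called lower, and Cyp4f41-ps was not called with the replicate block (limma adjusted p = 0.0547). Cyp2j13 was called lower at -1.87 and -1.66, but its probes averaged -2.59 and -0.94 and the weaker one was not called alone (limma adjusted p = 0.0623). For these 4 genes both liver arrays held the middle values of the centring, in at least 1 probe, so the agreement of their liver arrays was fixed by it. The spread that judged their brain means is shared by both tissues.

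Cyp1b1, which oxidises oestradiol and polycyclic hydrocarbons outside the liver, had 3.29 and 1.20 in brain. It was called with the replicate block only (limma adjusted p = 0.0888 without it and 0.00951 with it). Cyp4f15 (4.74 and 0.97), Cyp3a16 (1.67 and 0.75) and Cyp1a1 (1.43 and 0.70) were likewise called higher with the block only. On the low side the block added Cyp2c40 (-0.92 and -3.21), Cyp3a13 (-0.89 and -2.79), Cyp2d26 (-0.69 and -2.88), Cyp2d10 (-0.65 and -1.20) and Cyp2r1 (-2.02 and -1.07). Cyp2r1 is the enzyme that turns vitamin D into its circulating form. Cyp1a2, Cyp2e1, Cyp3a11, Cyp4a14 and Cyp2f2 had brain means between -0.56 and -0.04, and those of Cyp4f13, Cyp4a10, Cyp2s1 and Cyp4b1 lay between 0.16 and 0.76. None of these 9 was called in brain in either fit.

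Brain minus liver compared the species difference in brain with that in liver. It was higher for 2 of the 53 genes and lower for 11, where 3.53% and 2.54% of all genes were called. With the replicate block the counts were 1 and 21, where 4.84% and 3.97% of all genes were called. Cyp2c40 had the lowest value, at -8.16 ± 1.00, from a brain mean of -2.07 against a liver mean of at least 6.10, so the difference is at least that large. Cyp2f2 followed with -7.09 ± 0.34, from a brain mean of -0.04 against at least 7.04 in liver. Cyp2b10 was the highest at 4.12 ± 0.48, from 0.04 in brain against -4.08 in liver (limma adjusted p = 0.0461). Cyp4a10 had 1.57 ± 0.15 and was not called with the block (limma adjusted p = 0.0545). Cyp3a13 (-4.86), Cyp4a14 (-3.03) and Cyp1a1 (-2.02) were called lower with the block only. Cyp2r1 (-2.58), Cyp1a2 (-0.49), Cyp3a11 (-0.31), Cyp4b1 (-0.22), Cyp2s1 (0.84) and Cyp1b1 (0.96) were called in neither fit. Neither tissue comparison nor their difference called 31 of the 53 genes without the block, and 18 were called in none with either fit, Cyp1a2, Cyp3a11, Cyp2c29, Cyp2g1 and Cyp2s1 among them. No share of all genes is given for these counts, and nothing about P450 genes is read from them.

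Other genes of the P450 system were read on the same liver arrays. Among 4 redox partners, the cytochrome b5 reductase Cyb5r3 (2.73 and 2.97) and the ferredoxin Fdx1 (1.44 and 1.19) were called higher in mouse liver, and the block added Cyb5b (-0.85 and -2.33) as lower. Among 18 regulators, the bile acid receptor Nr1h4 (4.00 and 3.14) and the fatty acid receptor Ppara (2.51 and 1.75) were called higher. With the block 6 regulators were higher, Ahr (2.10 and 0.92) among them, and 1 was lower, Stat5b (-0.77 and -1.26). The xenobiotic receptor Nr1i2 (1.45 and 0.90) passed with the replicate block only, and its relative Nr1i3 (0.25 and 0.21) passed in neither fit. Among 8 enzymes of haem synthesis, Alas1, its rate-limiting first step, was called higher at 2.03 and 2.17, and with the block 5 were higher. None was lower in either fit. Other P450 families contributed 1 call of 18 genes, the sterol demethylase Cyp51 at 1.38 and 1.41, and 3 higher and 2 lower with the block. Among 16 other phase I enzymes, the epoxide hydrolase Ephx2 (6.10 and 5.34) and the monooxygenase Fmo5 (2.65 and 2.45) were called higher, and with the block 7 were higher and 1 lower.

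In the hybrid panel, P450 genes differed from A23 by little. The mean over 99 lines was called higher for 4 of the 53 genes (7.55%) and lower for 8 (15.1%), where 19.5% and 11.4% of all genes were called. The other 41 genes had means between -0.18 and 0.20, and 22 of them had an adjusted p under 0.05 with a mean below the size limit. Values often differed between the dye orientations, and 27 of the 53 genes (50.9%) had means of opposite sign in replicates 1 and 2, beside 61.3% of all genes. Over all genes the means of the orientations correlated with r = -0.23, and over the 53 genes with r = -0.26, as descriptions across genes that share the same arrays. A call that also held in each orientation alone was made for 0 P450 genes higher and 3 lower, where 6.08% and 3.26% of all genes met that rule. At an unadjusted limma p under 0.05 in the mean and in each orientation, with no size limit, 1 was higher (Cyp1a1) and 13 were lower. Cyp1a1 was exactly 0 on 89.9% of the hybrid arrays. No share of all genes is given for these unadjusted counts, and nothing about P450 genes is read from them.

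Cyp2j5, Cyp2d10 and Cyp2d12 were the 3 genes called lower also in each orientation alone. Cyp2j5 averaged -0.29 in both replicates and had 22 of 99 lines above 0 (mean -0.29 ± 0.05, SE, n = 99 lines, limma adjusted p = 7.1e-08). Cyp2d10 averaged -0.33 and -0.26 in the replicates, and Cyp2d12 averaged -0.27 and -0.36. All 3 changes were small, at about 1.22 to 1.24-fold below A23. The same genes were higher in mouse liver than in hamster liver, by 3.89, 3.29 and 1.79.

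The other panel calls rested on 1 orientation or on a margin. Cyp1b1 had the highest mean of the 53 genes, 1.24 ± 0.19 (limma adjusted p = 3.1e-08), with 68 of 99 lines above 0. Its line means ran from -1.61 through a median of 0.78 to 5.94. Replicate 1 averaged 2.25 and replicate 2 averaged 0.24, so most of that mean came from 1 dye orientation. Cyp2c40 averaged 0.33 ± 0.04 (0.55 and 0.11 in the replicates) with 79 of 99 lines above 0, and Cyp2d34 averaged 0.21 (0.32 and 0.10). Cyp2g1, a gene of the olfactory mucosa, averaged 0.26 with 0.74 in replicate 1 and -0.22 in replicate 2.

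On the low side, Cyp4f14 (-0.21), Cyp4f18 (-0.24) and Cyp2d26 (-0.25) were called with smaller sizes. The probes of Cyp2d26 averaged -0.12 and -0.37, and the first was under the size limit alone. Cyp2b13 averaged -0.31 with 0.44 in replicate 1 and -1.06 in replicate 2. Its probes averaged -0.11 and -0.51, and the first was under the size limit alone. Cyp2ab1 averaged -0.36 with -1.15 in replicate 1 and 0.44 in replicate 2. The sign for Cyp2b13, Cyp2ab1 and Cyp2g1 thus differed between the orientations, and no direction against A23 is read from them. Of the 5 genes with the largest liver ratios, Cyp2c40 and Cyp2d34 were thus called higher in the panel. Cyp2f2 at 0.12 (0.56 and -0.31), Cyp3a16 at 0.13 (0.25 and 0.02) and Cyp3a41a were not called. Cyp1a2, Cyp2e1, Cyp2r1, Cyp3a11, Cyp3a13 and Cyp4a14 lay between -0.09 and 0.06. Cyp2s1 (-0.13), Cyp4a10 (0.14), Cyp4b1 (0.18) and Cyp4f13 (-0.18) were also under the size limit.

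Some regulators of P450 genes were called in both orientations. Ahrr, the repressor of the aryl hydrocarbon receptor, averaged 0.62 ± 0.11 (0.68 and 0.56 in the replicates, limma adjusted p = 2.5e-06). The hepatic transcription factors Hnf4a (-0.36) and Cebpa (-0.37) were called lower, also in each orientation alone. Of the 18 regulators 1 was called higher and 2 lower, also in each orientation alone. Of the 8 haem synthesis enzymes 5 were called higher by their mean, but only Urod (0.34 and 0.34) in each orientation alone. Alas2 (0.93 and -0.50), Alad (-0.21 and 0.63) and Fech (-0.21 and 1.04) had opposite signs in the replicates.

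**Figure D2:**
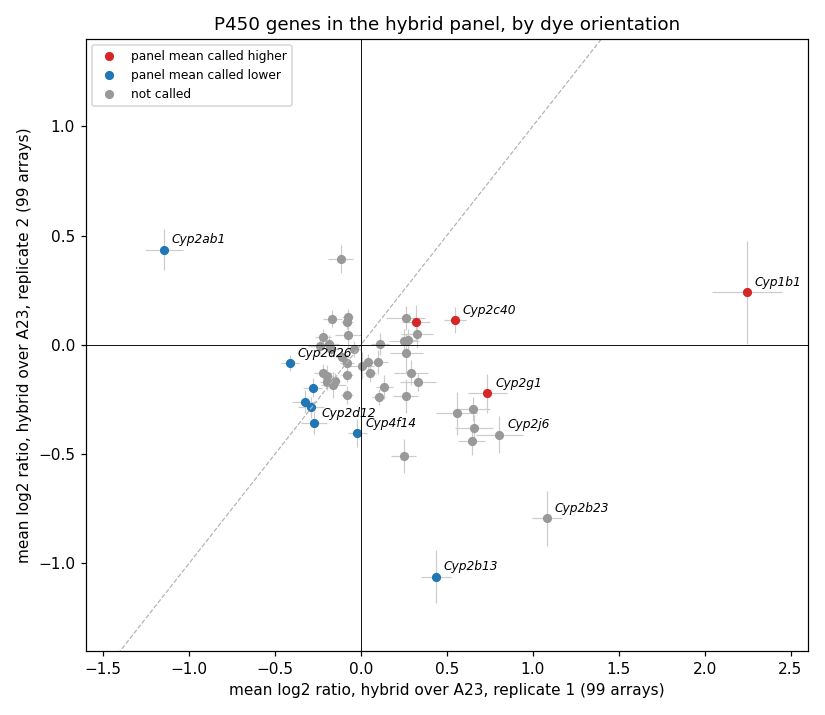
Mean log2 ratio of hybrid over A23 for the 53 P450 genes in replicate 1 (horizontal, 99 arrays) and replicate 2 (vertical, 99 arrays, dyes exchanged). Cyp1b1 lies far right at 2.25 with only 0.24 on the vertical axis, and 27 of the 53 genes lie in the quadrants of opposite sign.

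Each hybrid line keeps different mouse DNA, so the next comparison asked which P450 genes differed between lines beyond the gap between the 2 arrays of a line. Among the 53 genes, 2 did (3.77%), where 8.88% of all genes were called. They were Cyp1b1 (limma moderated F = 2.97, adjusted p = 2.6e-06) and Cyp2ab1 (F = 2.71, adjusted p = 1.9e-05). The share of variance lying between lines (intraclass correlation) was 0.48 for Cyp1b1 and 0.45 for Cyp2ab1, beside a median of 0.03 over the 53 genes and 0.04 over all genes. Cyp1a1 (adjusted p = 0.215) and Cyp4b1 (adjusted p = 0.218) came next by F and did not pass.

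Cyp1b1 was far above A23 in a minority of lines and on both of their arrays. In line 76 its values were 5.93 and 5.95, and in line 73 they were 5.85 and 5.84. Line 21 had at least 6.64 and 4.61, line 66 had 5.81 and 5.37, and line 28 had 5.70 and 4.81. Both arrays exceeded 1 in 21 of the 99 lines, and in none did both fall below -1. Replicate 1 ran from -1.19 through a median of 2.25 to at least 6.64, and replicate 2 ran from -4.18 through a median of 0 to 6.10. Exact zeros made up 22.2% of its hybrid values, and 41 lines had at least 1.

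Cyp2ab1, whose enzyme has no settled function, varied with smaller ratios. Line 97 was highest by its mean, with 0.96 and 2.69, and line 99 was lowest, with -2.94 and -1.91. Both arrays were below 0 in 37 lines and above 0 in 19, and they disagreed in sign in 43. The order of the lines was thus partly shared between the arrays, which correlated at 0.46. The level differed between them, with a median of -1.12 in replicate 1 and 0.12 in replicate 2. Dye and replicate cannot be told apart here. Without a term for the dye orientation neither gene was called (adjusted p = 0.0984 for Cyp1b1 and 1 for Cyp2ab1), so these calls depend on that term.

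Among the other 51 genes, 6 had any line above 1 on both arrays, and none had more than 3 such lines. Cyp2g1 had 3, Cyp4b1 and Cyp2f2 had 2 each, and Cyp1a1, Cyp2b23 and Cyp2j6 had 1 each, none of them called between lines. Cyp1a1 was exactly 0 on 89.9% of the hybrid arrays, and line 78 alone had both arrays above 1, with at least 6.64 and 3.26. In lines 41 and 95 Cyp1a1 had at least 6.64 and 5.20 on replicate 1 but 0 on replicate 2. Line 78 was also among the highest for Cyp1b1, at 6.27 and 3.26, while line 41 was the lowest for Cyp1b1, at 0 and -3.23. Cyp4b1, a lung P450, had 2.71 and 1.63 in line 23 and 1.77 and 1.57 in line 29. Cyp2f2 had 3.97 and 2.29 in line 56 and 1.38 and 1.52 in line 29. Other extreme values appeared on only 1 array of a line, as for Cyp2c29 in line 13 (at least 6.64 and 0.50), Cyp2b9 in line 100 (at least 6.64 and -0.32) and Cyp2c38 in line 14 (at least 6.64 and 0.26).

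**Figure D3:**
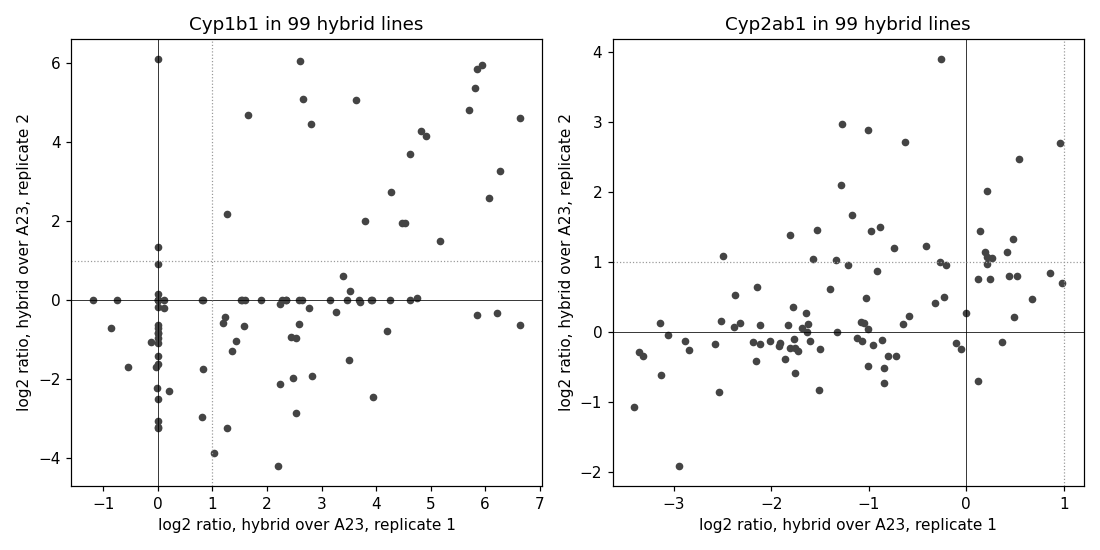
Log2 ratio of hybrid over A23 in each of 99 lines, replicate 1 (horizontal) against replicate 2 (vertical, dyes exchanged), for Cyp1b1 and Cyp2ab1. Lines 76 and 73 lie near 5.9 on both axes for Cyp1b1, and many lines sit at 0 on the vertical axis. For Cyp2ab1 the points follow a slope but are shifted to the left and upwards.

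The genes whose pattern over the 99 lines was most like that of Cyp1b1 were ranked by the mean correlation of one gene's first array with the other's second array, which share no hybridisation. The 2 arrays of Cyp1b1 itself correlated at 0.49 by this measure. Gemin6 (0.45), Gpr108 (0.38), Dynlt1b (0.37) and Mcfd2 (0.32) were closest, followed by Lonp1 (0.32), Gpx8 (0.30), Cript (0.30) and Xdh (0.30). Gemin6, Mcfd2, Cript and Xdh are known to lie on the mouse chromosome that carries Cyp1b1. Positions were not analysed here, so this naming does not place the other listed genes on or off that chromosome. For Cyp2ab1, whose own arrays correlated at 0.46, the closest were P2ry14 (0.39), Rasl11a (0.39), Aqp1 (0.37) and Fam83d (0.37). These are descriptions over 99 lines, listed after the values were seen.

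Most pairs of P450 genes were weakly correlated over the lines, and the strong correlations of some pairs within an array were not seen across the 2 arrays of a line. Of 1378 pairs, 98 correlated above 0.5 and 46 below -0.5 over the 99 arrays of replicate 1. Over those of replicate 2 there were 33 and 4, and the median was 0.01 in each. When 1 gene was taken from the first array and the other from the second, 0 pairs passed either limit, and the range was -0.23 to 0.24. This count cannot decide whether genes vary together, because single genes repeated poorly between the arrays. The median share of variance between lines was 0.03. Cyp1b1 and Cyp2ab1 had the largest shares, and even they correlated with themselves across arrays at only 0.49 and 0.46, under the limit of 0.5. Cyp2c23 and Cyp2j9 had the highest correlation of replicate 1, 0.94, but -0.09 and -0.12 across arrays. Cyp2b13 and Cyp2b23 had the highest of replicate 2, 0.84, and 0.02 and 0.03 across arrays. Cyp2d10 and Cyp2d12, both called lower in the panel, correlated at 0.86 and 0.37 within the replicates, and at -0.07 and -0.05 across arrays. Pairs of the same subfamily had a mean of 0.07 over line means and 0.01 across arrays, against 0.02 and -0.002 for pairs of different subfamilies. Values of a pair within a replicate share the hybridisation, the dye and the A23 channel. Nothing about joint expression is read from them or from the correlations across arrays.

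**Figure D4:**
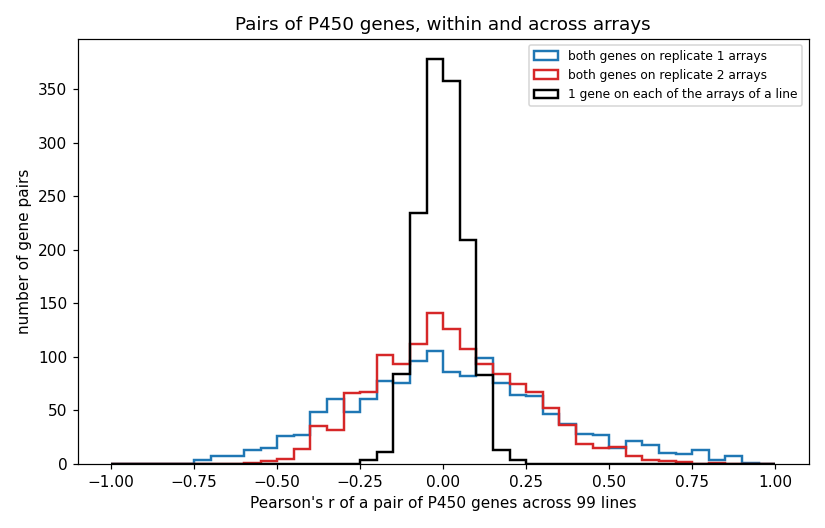
Number of pairs of P450 genes (vertical) by Pearson's r across 99 lines (horizontal), for values of the same array and for values of different arrays of a line. The curve across arrays stays between -0.23 and 0.24, while the curves within arrays reach 0.94 and 0.84.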

How the data were processed

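Per the labels, the authors deposited the log10 ratio of Cy5 over Cy3 for each probe. Not given in the sources used here were the scanner software, any background correction and the normalisation. No sample column was left out. The dye orientation was taken from the labels, and the log10 ratios were turned so that hybrid over A23 and mouse over hamster are positive, and converted to log2. Probes of a gene with 1 symbol were averaged. Intensities were not part of the table, and precision is limited by the number of arrays. Array SDs on the log2 scale lay between 0.397 and 2.43 (median 0.838), the widest being on an array of line 42.

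The 99 line means of each gene were tested against 0 with limma 3.58.1 (R 4.3.3). Lines were tested with a moderated F on line and dye orientation. The 4 tissue arrays were fitted with tissue as the factor (2 residual degrees of freedom), or with the replicate block as well (1). Per the labels the replicate number is the dye orientation, and the centring of each probe enters both tissues with the same sign in arrays of the same number. Deviations of brain and liver arrays of the same number correlated at 0.44 over all genes and 0.35 over the P450 genes, so blocked values are given beside results they change. Adjustment was always over 16504 genes. A23 is on every hybrid array and its own spread does not enter.

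Named were all called P450 genes up to 15 in each direction, Cyp2f2, Cyp2c40, Cyp3a16 and 12 further P450 genes measured here, and the 10 with the largest F. The P450 genes and all lists were chosen with earlier results of these data known. Scripts were tested on simulated data. Alternatives were array scaling, exact zeros or floor values as missing, no size limit, each probe alone, the replicate block and leaving out each replicate.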

Additional observations from a re-analysis of the deposited data

Results flagged for a closer look

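The difference of brain minus liver was tested directly, and 13 P450 genes were called for it without the replicate block. Cyp2c40 (-8.16), Cyp2f2 (-7.09), Cyp2d34 (-6.97), Cyp3a41a (-5.93), Cyp3a16 (-5.43), Cyp2a4 (-5.05), Cyp2j5 (-4.65), Cyp2d10 (-4.21), Cyp4f13 (-3.82), Cyp2e1 (-2.83) and Cyp2d12 (-1.76) had a larger mouse-over-hamster ratio in liver, on the log2 scale. Cyp2c40, Cyp2f2, Cyp2d34 and Cyp3a16 include a bounded liver value, so their differences are at least this large. Cyp2b10 (4.12) and Cyp4a10 (1.57) had the larger ratio in brain. With the replicate block 12 of the 13 were called, all but Cyp4a10. With arrays scaled 5 of the 13 lost their call, and with floor values as missing 2 did.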

How the results depend on the processing

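With the replicate block the counts of P450 calls changed to 5 higher and 7 lower in brain, 25 higher in liver, and 1 higher and 21 lower in brain minus liver. All 18 liver calls made without the block remained, as did 3 of 4 brain calls. When any 1 tissue array was left out, 0 P450 genes were called by limma, higher or lower, in that array's tissue or in brain minus liver. These fits leave a single array in 1 tissue, and no support is read from them. The lone array is then assumed to vary like the other tissue's. With arrays scaled, 1 gene was higher in brain minus liver, and Cyp1a1 was also called between lines. Among the genes named for brain minus liver, 5 lost their call with arrays scaled and 1 gained one. With floor values as missing, 2 lost their call in brain minus liver and 1 in liver. In the panel 11 genes were higher and 23 lower with no size limit. Leaving out a replicate gave 2 to 20 higher and 9 to 16 lower. No shares of all genes are given for these panel settings, so the counts show only how P450 calls depend on them. Without a dye term limma called 0 P450 genes between lines (2 at an unadjusted p under 0.05), and with exact zeros as missing 1, since Cyp1b1 then fell short of the required 80% of arrays. Leaving out line 42, chosen after seeing the data, left the counts of the panel and of the lines as they were. Of the 53 genes 27 had opposite signs in the orientations, beside 61.3% of all genes with opposite signs. By the orientations alone 11 were called in opposite directions, Cyp2b23, Cyp2j6 and Cyp2j13 included. No share of all genes is given for the 11, and nothing about P450 genes is read from them. For the genes named in every comparison or called in the panel, the mean of an orientation alone turned sign for Cyp2ab1 (-1.15 to 0.44), Cyp2b13 (-1.06 to 0.44), Cyp2f2 (-0.31 to 0.56), Cyp2g1 (-0.22 to 0.74), Cyp2r1 (-0.24 to 0.26), Cyp2s1 (-0.51 to 0.25), Cyp4a10 (-0.38 to 0.66) and Cyp4b1 (-0.29 to 0.65). Cyp4a14 did so as well, at smaller values (-0.08 to 0.10). The cause of these changes was not tested. Signal over background is unknown here.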
